A study of Mus musculus with 12 samples.

Results

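The genes described here serve protein folding in the endoplasmic reticulum (ER), the stress response of that organelle, and the hydroxylation and export of collagen. They are 36 genes taken by symbol, for their known roles and with earlier results of these data known. Of the 36, 35 had a probe on the bead array, and 33 had a probe that was detected often enough to be tested, among 34509 symbols with a probe and 14317 with a tested probe. Dnajc3, which encodes a co-chaperone, had no probe under that symbol. The probes of Calr and Ssr1 were not detected on any array.

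Femoral head cartilage came from 21-day-old TS-4/5∆cat mice and was kept in culture for 3 days, either untreated, or given IL-1α at 10 ng/mL, or given retinoic acid at 10 µM. All groups, the untreated one included, therefore lacked the catalytic domains of ADAMTS-4 and ADAMTS-5. These enzymes are known to cleave aggrecan when cartilage is stimulated with agents such as IL-1α or retinoic acid. There were 12 arrays, 4 per treatment, of which 2 came from the Donut line in batch 1 and 2 from the Gertrude line in batch 2, so that mouse line and batch cannot be told apart. The labels state 4 hips per well and mention serum ahead of treatment; the methods state serum-free culture and 3 unpooled mice per treatment. No label ties an array to an animal, so the p-values measure the spread between arrays, and the number of arrays limits their precision.

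Secreted and membrane proteins enter the ER through the Sec61 translocon and fold there with the help of chaperones, lectins and disulfide exchange enzymes. When unfolded protein accumulates, sensors in the ER membrane activate the transcription factors XBP1, ATF6 and ATF4, which raise chaperones, degradation components and amino acid supply, and ATF4 with CHOP (Ddit3) raises further targets. Chondrocytes secrete large amounts of collagen, whose prolines and lysines are hydroxylated in the ER before the triple helix leaves in vesicles coated by COPII.

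The promoters of the genes were read from RefSeq (mouse build GRCm38.p6), from 250 bases before the transcription start to 50 after it, and 32 of the 36 genes had one. Hyou1, Creb3l1, Sec61a1 and Plod2 were not matched. They were searched on both strands for 4 motifs by which stress factors are known to bind. The ER stress response element (ERSE) was taken as CCAAT, 9 bases of any kind and CCACG, and the related element ERSE-II as ATTGG, 1 base of any kind and CCACG. The other motifs were TGACGTGG, whose opposite strand holds the CCACG of the first pair, and TGATGNAA, the joint site of ATF4 and its C/EBP partners. ERSE was present in 7 promoters, or 21.9%, against 0.119% of 32851 promoters. ERSE-II was present in 2 (6.25%, against 0.0365%), TGACGTGG in 2 (6.25%, against 0.676%) and TGATGNAA in 4 (12.5%, against 3.97%). The ERSE promoters were those of Hspa5, Hsp90b1, Calr, Canx, Dnajc3, Pdia6 and Syvn1. Genes and motifs were both chosen for what is known of the stress response, so the excess over all promoters is descriptive and not a separate finding. A match is a description of the letters and does not show binding in these explants.

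The windows below are from genes whose values are given further on. That of Pdia6, whose ERSE match also lies before the start, is not printed. Each is printed in the direction of its gene, with the motif in capitals and 15 flanking bases on each side. A motif that lies on the opposite strand is printed as its reverse complement.
Hspa5, ERSE match, chr2:34772010-34772058 (plus strand): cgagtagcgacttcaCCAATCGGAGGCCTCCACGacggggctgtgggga
Hsp90b1, ERSE match, chr10:86705623-86705671 (minus strand): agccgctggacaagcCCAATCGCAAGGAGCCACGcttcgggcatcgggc
Hsp90b1, ERSE match, chr10:86705518-86705566 (minus strand): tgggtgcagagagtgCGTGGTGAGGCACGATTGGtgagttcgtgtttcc
Canx, ERSE match, chr11:50325785-50325833 (minus strand): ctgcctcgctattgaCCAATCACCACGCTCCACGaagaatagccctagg
Syvn1, ERSE match, chr19:6046517-6046565 (plus strand): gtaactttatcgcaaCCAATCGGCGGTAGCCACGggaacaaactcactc
Herpud1, ERSE-II match, chr8:94386362-94386402 (plus strand): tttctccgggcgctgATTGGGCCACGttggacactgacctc
Herpud1, TGATGNAA match, chr8:94386302-94386339 (plus strand): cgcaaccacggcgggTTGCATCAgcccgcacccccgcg
Chac1, TGATGNAA match, chr2:119351034-119351071 (plus strand): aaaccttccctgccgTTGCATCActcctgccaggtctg
Asns, TGATGNAA match, chr6:7693210-7693247 (minus strand): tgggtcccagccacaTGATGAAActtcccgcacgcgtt
Sec24d, TGACGTGG match, chr3:123267455-123267492 (plus strand): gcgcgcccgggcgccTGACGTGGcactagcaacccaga
The first base of the Hspa5 motif lies 65 bases before the start, and those of the Hsp90b1 motifs 212 and 107 bases before it. Herpud1 carried both ERSE-II, from 52 bases before the start, and TGATGNAA, from 112 bases before it. The TGATGNAA of Chac1 began 193 bases and that of Asns 23 bases before the start. Matches in Trib3 (TGATGNAA), Sec23a (TGACGTGG) and Dnajb11 (ERSE-II) lay past the start and are not printed.

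With retinoic acid the genes were mostly lower than in untreated explants. Of the 33 tested, 16 fell and 1, Sdf2l1, rose (limma, Benjamini-Hochberg adjusted p under 0.05 over all probes), which is 51.5% called. Over all tested genes 36.7% were called, 18.6% as higher and 18.1% as lower. The median log2 difference of the 33 was -0.45, against 0.01 over all tested genes, and 30 of the 33 differences were below 0. The falls were found among chaperones (Hsp90b1, Hspa5, Canx), disulfide exchange enzymes (P4hb, Pdia3), stress transcription factors (Creb3l1, Ddit3), the ATF4 and CHOP targets (Chac1, Trib3, Asns), Herpud1, Sec23a and 4 of 5 collagen hydroxylases (Plod2, P4ha1, P4ha2, Plod3). In 20 of the 33 the retinoic acid arrays lay apart from the untreated ones in the same direction within both batches, which is 60.6% against 42.6% of all tested genes, and in 18 of these 20 they lay below. Scaling every array to a common median, without quantile normalization, left 11 calls (9 lower, 2 higher) and moved the median of all tested genes to 0.13 and that of the 33 to -0.33. Over all tested genes, 4298 of 14317 were then called, against 5257 in the main fit. The share called among the 33 thus lay closer to that over all tested genes. With that scaling 34.9% of all calls were lower, against 49.3%, and the calls of Hspa5, Canx, Pdia3, Ddit3, Sec23a, P4ha2 and Plod3 were lost.

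IL-1α moved the genes in both directions. It raised Sdf2l1, Ddit3, Atf4 and Syvn1 and lowered Chac1, Hsp90b1, P4ha1 and Plod1. These 8 are 24.2% of the 33, against 30.2% of all tested genes, of which 15.1% were higher and 15% lower. The median difference was -0.02, against 0.01 over all genes, and 11 of the 33 had arrays apart in the same direction in both batches, or 33.3% against 34.8% of all genes. With median scaling the calls of Atf4, Syvn1, P4ha1 and Plod1 were lost, and 2569 of all tested genes were called, against 4317.

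Retinoic acid against IL-1α gave 18 calls, or 54.5% against 32.5% of all tested genes, of which 16.1% were higher and 16.4% lower. The median difference was -0.34, against -0.03 over all tested genes. The 17 lower genes were Herpud1, Chac1, Ddit3, Trib3, Plod2, Atf4, Creb3l1, Asns, Hspa5, Syvn1, Sec24d, Edem1, Pdia3, Sec23a, Xbp1, Plod3 and P4ha2, and the higher one was Plod1. Arrays were apart in the same direction in both batches for 21 of the 33, or 63.6% against 40.1% of all genes. This comparison is the test of whether the responses to the treatments differed, since the untreated arrays are shared by the other comparisons and drop out of it. With median scaling the calls of Hspa5, Pdia3, Xbp1, Edem1, Syvn1, Sec23a, Sec24d, Plod3 and P4ha2 were lost. Of all tested genes 3376 were then called, against 4653.

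**Figure D1:**
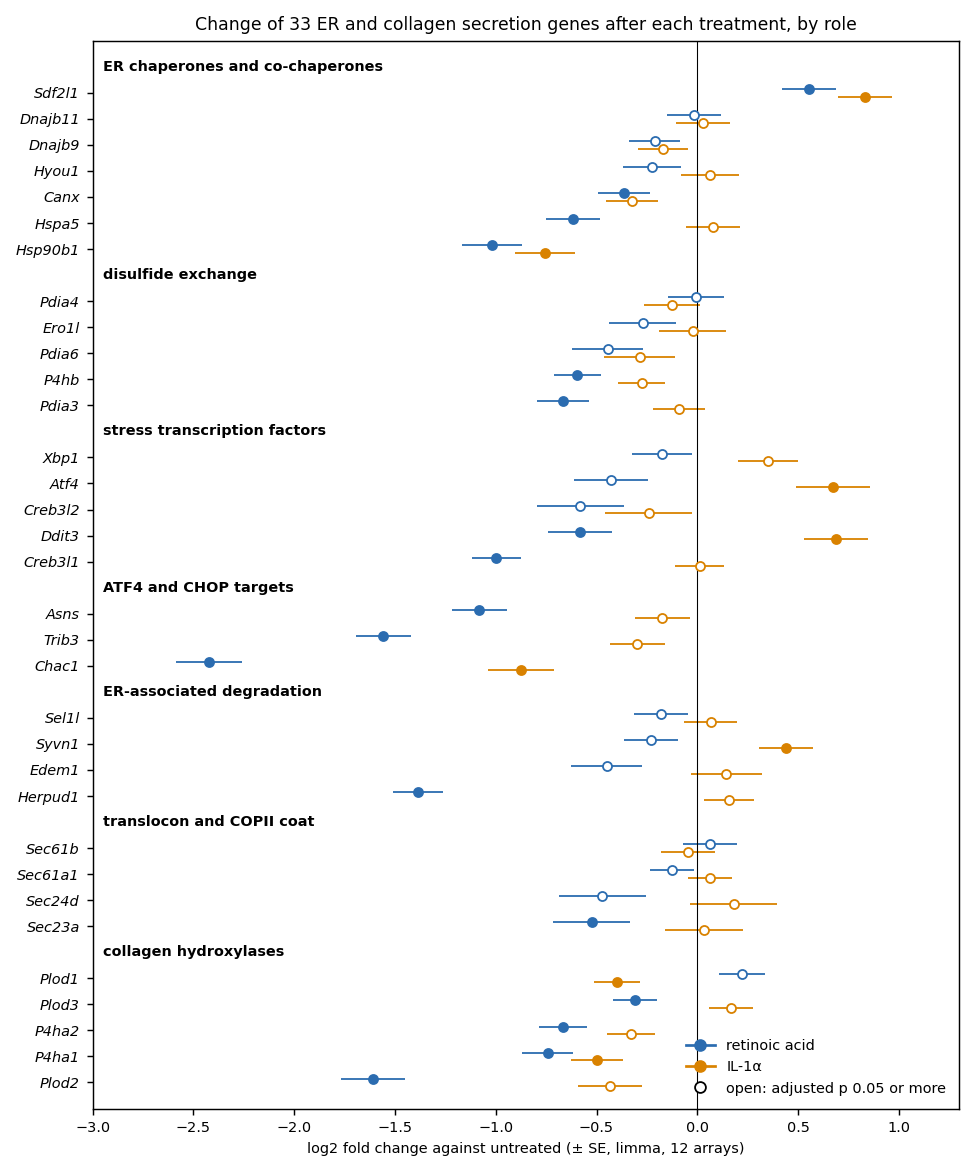
Log2 fold change against untreated explants of the 33 tested genes, grouped by role, with retinoic acid in blue and IL-1α in orange. Points are limma estimates over 12 arrays and bars are their standard errors; filled points passed an adjusted p of 0.05. The blue points lie left of 0 for 30 genes, and Chac1 at -2.42 lies farthest.

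Chondrocyte markers moved with retinoic acid too. Of 10 marker genes on the array, Acan, Col2a1, Sox9, Hapln1, Matn1, Comp, Col9a1 and Col11a1 were tested, and 8 of 8 fell with retinoic acid and 6 with IL-1α. Their summed normalized intensity was 62610 to 74150 on the untreated arrays, 35440 to 47250 with IL-1α and 10220 to 15490 with retinoic acid, with no overlap between the treatments. Matn3 was not detected on any array and Lect1 on 3 untreated arrays alone. In RNA from whole explants, fewer cells of a type and less RNA per cell cannot be told apart. The summed markers of B and plasma cells, which are rich in ER, were 382.2 to 444.3 untreated, 384.2 to 602.6 with IL-1α and 602.7 to 717.4 with retinoic acid, and 3 of 4 tested markers rose with retinoic acid and 1 with IL-1α, with Igj undetected on all arrays. Macrophage markers summed to 6252 to 7662, 5198 to 8916 and 8835 to 10010 in the same order, with 5 of 9 higher with retinoic acid and 2 higher and 5 lower with IL-1α. Osteoblast markers summed to 10140 to 12110, 2736 to 5002 and 2962 to 4396, with 4 of 5 lower in each treatment, and neutrophil markers to 9708 to 16160, 16870 to 17750 and 5625 to 14750, with 5 of 7 lower with retinoic acid. Markers of fibroblasts and synovium summed to 14110 to 17320, 13780 to 15450 and 10630 to 13060, with 4 of 5 lower in each treatment and 1 higher with retinoic acid. Endothelial markers summed to 1991 to 2511, 1003 to 1364 and 2196 to 2550, with 3 of 7 lower with IL-1α, and adipocyte markers to 1015 to 1492, 281 to 552.6 and 332.3 to 402.6, with both tested ones lower in each treatment. Skeletal muscle markers summed to 246.6 to 457, 188.6 to 252.9 and 186.4 to 250, and erythroid markers to 21760 to 27880, 24950 to 34170 and 19020 to 32040. The part of these shifts in the results for the ER genes was not tested.

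Differences below are on the log2 scale, with their standard error and limma adjusted p, from 12 arrays with 4 per treatment. Of the 9 chaperones and co-chaperones, 7 were tested, of which 3 fell and 1 rose with retinoic acid (median -0.23) and 1 fell and 1 rose with IL-1α (median 0.03). Hspa5 encodes BiP, the Hsp70 of the ER and the classical reporter of its stress. The Hspa5 probe read 6.09 and 6.01 in batch 1, 6.84 and 7.29 in batch 2 in untreated explants. The IL-1α arrays read 6.42 and 6.22 in batch 1, 6.93 and 6.97 in batch 2, and with retinoic acid 5.37 and 5.40 in batch 1, 6.48 and 6.52 in batch 2 (normalized log2 intensity). Within each batch both retinoic acid arrays lay below both untreated arrays, while the IL-1α arrays lay above them in batch 1 and between them in batch 2. The batch 1 retinoic acid readings lay just above the dimmest detected values of those arrays, 5.36 and 5.34. The size of the fall in that batch therefore rests on values near the limit of detection. Hspa5 fell by 0.62 on the log2 scale with retinoic acid (SE 0.13, adjusted p = 0.00299, 1.53-fold lower), did not pass the test with IL-1α (0.08 ± 0.13, adjusted p = 0.711), and was lower with retinoic acid than with IL-1α (-0.69 ± 0.13, adjusted p = 0.0015). The 5 genes of the array most like Hspa5 over the 12 arrays, after each batch was centred, were Itga6 (r = 0.96), Adipor1 (0.96), Ccdc47 (0.96), 9530062N20Rik (0.95) and Aim1 (0.95). Among the other 32 tested genes of this set Creb3l1 came closest (r = 0.94), then Herpud1 (0.91) and Pdia3 (0.89). An r over 0.7 with Hspa5 was reached by 13 of the 32, or 40.6%, against 9.04% of 14316 genes, and Plod1 ran opposite at -0.71. These correlations share arrays and treatments and are descriptive.

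Hsp90b1 encodes GRP94, the Hsp90 of the ER. It read 9.85 and 10.12 in batch 1, 11.13 and 11.77 in batch 2 in untreated explants. IL-1α-treated explants gave 8.999 and 9.12 in batch 1, 10.89 and 10.84 in batch 2, and with retinoic acid 8.86 and 8.83 in batch 1, 10.67 and 10.44 in batch 2. Both treatments lay below the untreated arrays within each batch, and batch 2 was the brighter batch in every treatment. It fell with retinoic acid (-1.02 ± 0.15, adjusted p = 1.36e-04, 2.03-fold lower) and with IL-1α (-0.76 ± 0.15, adjusted p = 0.00216), and the difference between the treatments did not pass the test (-0.26 ± 0.15, adjusted p = 0.207).

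Sdf2l1 encodes an ER-resident partner of the co-chaperone Dnajb11 and moved the opposite way. Its log2 intensity was 7.31 and 7.23 in batch 1, 6.73 and 6.36 in batch 2 in untreated explants. With IL-1α it read 7.82 and 7.92 in batch 1, 7.56 and 7.66 in batch 2, and with retinoic acid 7.67 and 7.73 in batch 1, 7.18 and 7.27 in batch 2. The untreated arrays were the lowest of each batch. Sdf2l1 rose with retinoic acid (0.55 ± 0.13, adjusted p = 0.00552) and with IL-1α (0.83 ± 0.13, adjusted p = 5.27e-04, 1.78-fold), and no other gene of the 33 rose with both.

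The remaining tested chaperones gave smaller differences. Canx, the lectin chaperone calnexin, fell with retinoic acid (-0.36 ± 0.13, adjusted p = 0.0434), yet its probe was detected on batch 2 arrays alone and a second, dimmer probe gave -0.03 (adjusted p = 0.852). The Canx call was lost, at an adjusted p of up to 0.157, when any array was left out other than untreated replicate 2, IL-1α replicate 1 or retinoic acid replicate 2 of batch 1 or IL-1α replicate 2 of batch 2. Hyou1, a nucleotide exchange factor for BiP, gave -0.23 ± 0.14 (adjusted p = 0.25), and the BiP co-chaperones Dnajb9 and Dnajb11 gave -0.21 ± 0.13 (adjusted p = 0.215) and -0.02 ± 0.13 (adjusted p = 0.946). With IL-1α these 3 were at 0.06, -0.17 and 0.03, and none passed the test in any comparison. Dnajb9 was detected in batch 2 alone, and Hyou1 in batch 1 only on untreated replicate 1, so most of their batch 1 values were not above background. With retinoic acid Dnajb9 gave -0.03 in batch 1 and -0.40 in batch 2, and Hyou1 -0.39 and -0.06.

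Among the 5 genes of disulfide exchange, P4hb and Pdia3 fell with retinoic acid (median of the 5 -0.44) and none passed the test with IL-1α (median -0.13). P4hb encodes protein disulfide isomerase, which is also the β subunit of the collagen prolyl 4-hydroxylase, and its difference was -0.60 ± 0.12 (adjusted p = 0.0015), with all 4 retinoic acid arrays (13.06 at most) below all 4 untreated ones (13.46 at least). Its readings approach the highest value of the arrays, 14.24. Pdia3, the partner of calnexin known as ERp57, gave -0.67 ± 0.13 (adjusted p = 0.00128) against untreated and -0.57 ± 0.13 (adjusted p = 0.00407) against IL-1α. Pdia4 gave -0.01 ± 0.14 (adjusted p = 0.982). Pdia6 and Ero1l, the oxidase that recharges the isomerases, were detected in batch 2 alone and gave -0.44 ± 0.18 (adjusted p = 0.0666) and -0.27 ± 0.17 (adjusted p = 0.234). With IL-1α the differences of the 5 ran from -0.29 (Pdia6) to -0.02 (Ero1l).

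Of the 5 transcription factors of the stress response, 2 fell with retinoic acid (median -0.58), 2 rose with IL-1α (median 0.35), and 4 were lower with retinoic acid than with IL-1α (median -1.01). Ddit3 encodes CHOP, which ATF4 induces. It read 11.55 and 11.81 in batch 1, 10.98 and 10.56 in batch 2 in untreated explants. With IL-1α it read 12.70 and 12.65 in batch 1, 11.03 and 11.27 in batch 2, and with retinoic acid 11.15 and 11.11 in batch 1, 10.09 and 10.21 in batch 2. IL-1α arrays were the highest and retinoic acid arrays the lowest of each batch. Ddit3 rose with IL-1α (0.69 ± 0.16, adjusted p = 0.00606), fell with retinoic acid (-0.58 ± 0.16, adjusted p = 0.0115) and differed 2.41-fold between them (-1.27 ± 0.16, adjusted p = 4.07e-05).

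Atf4, the factor translated when eIF2α is phosphorylated, read 8.58 and 8.77 in batch 1, 11.30 and 10.71 in batch 2 in untreated explants. IL-1α-treated explants gave 9.82 and 9.88 in batch 1, 11.26 and 11.10 in batch 2, and with retinoic acid 8.51 and 8.60 in batch 1, 10.26 and 10.29 in batch 2. In batch 1 the IL-1α arrays stood more than 1 log2 unit above the untreated ones, and in batch 2 they fell within the untreated range. It rose with IL-1α (0.67 ± 0.18, adjusted p = 0.0158), gave -0.43 ± 0.18 (adjusted p = 0.0907) with retinoic acid, and was lower with retinoic acid than with IL-1α (-1.10 ± 0.18, adjusted p = 4.90e-04). A second Atf4 probe read otherwise against untreated explants, with 0.05 (adjusted p = 0.838) for IL-1α and -0.93 (adjusted p = 3.94e-04) for retinoic acid. Its difference between the treatments was alike at -0.98. With the probes averaged, the IL-1α difference was 0.36 and did not pass the test (adjusted p = 0.0717), while retinoic acid was called lower. The IL-1α call was lost without any 1 of the 4 untreated and IL-1α arrays of batch 1 (adjusted p up to 0.0738).

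Xbp1, whose mRNA is spliced by the sensor IRE1, read 12.17 and 12.18 in batch 1, 12.85 and 12.23 in batch 2 in untreated explants. IL-1α-treated explants gave 12.83 and 12.86 in batch 1, 12.74 and 12.40 in batch 2, and with retinoic acid 12.05 and 12.05 in batch 1, 12.36 and 12.27 in batch 2. One untreated array of batch 2 stood at 12.85, beside 12.17 to 12.23 on the other 3. Xbp1 gave 0.35 ± 0.15 (adjusted p = 0.096) with IL-1α and -0.18 ± 0.15 (adjusted p = 0.399) with retinoic acid. Retinoic acid was below IL-1α (-0.53 ± 0.15, adjusted p = 0.0165), with no overlap between the 4 arrays of each treatment, though the call was lost without any 1 retinoic acid or IL-1α array of batch 1 or without retinoic acid replicate 1 of batch 2 (adjusted p up to 0.0758). Without the bright untreated array, the IL-1α difference passed the test at 0.48 (adjusted p = 0.0303).

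Creb3l1 (OASIS) and Creb3l2 (BBF2H7) encode membrane-bound factors that are cleaved on stress and are known to serve matrix secretion in bone and cartilage. Creb3l1 read 5.81 to 6.24 in untreated explants, 5.84 to 6.09 with IL-1α and 4.94 to 5.13 with retinoic acid, where it was detected on 1 of 4 arrays. It fell with retinoic acid (-0.998 ± 0.12, adjusted p = 3.33e-05) and lay below IL-1α (-1.01 ± 0.12, adjusted p = 3.11e-05). The other 3 retinoic acid arrays were not above background, and with an offset of 50 the differences were -0.57 and -0.58. Creb3l2 gave -0.58 ± 0.22 (adjusted p = 0.0519) with retinoic acid and -0.24 ± 0.22 (adjusted p = 0.435) with IL-1α. The first passed the test without any 1 of 6 arrays, namely the 4 IL-1α arrays and the retinoic acid arrays of batch 2 (adjusted p down to 0.0228), and under 2 alternative settings. Its IL-1α arrays were above the untreated ones in batch 1 and below them in batch 2.

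**Figure D2:**
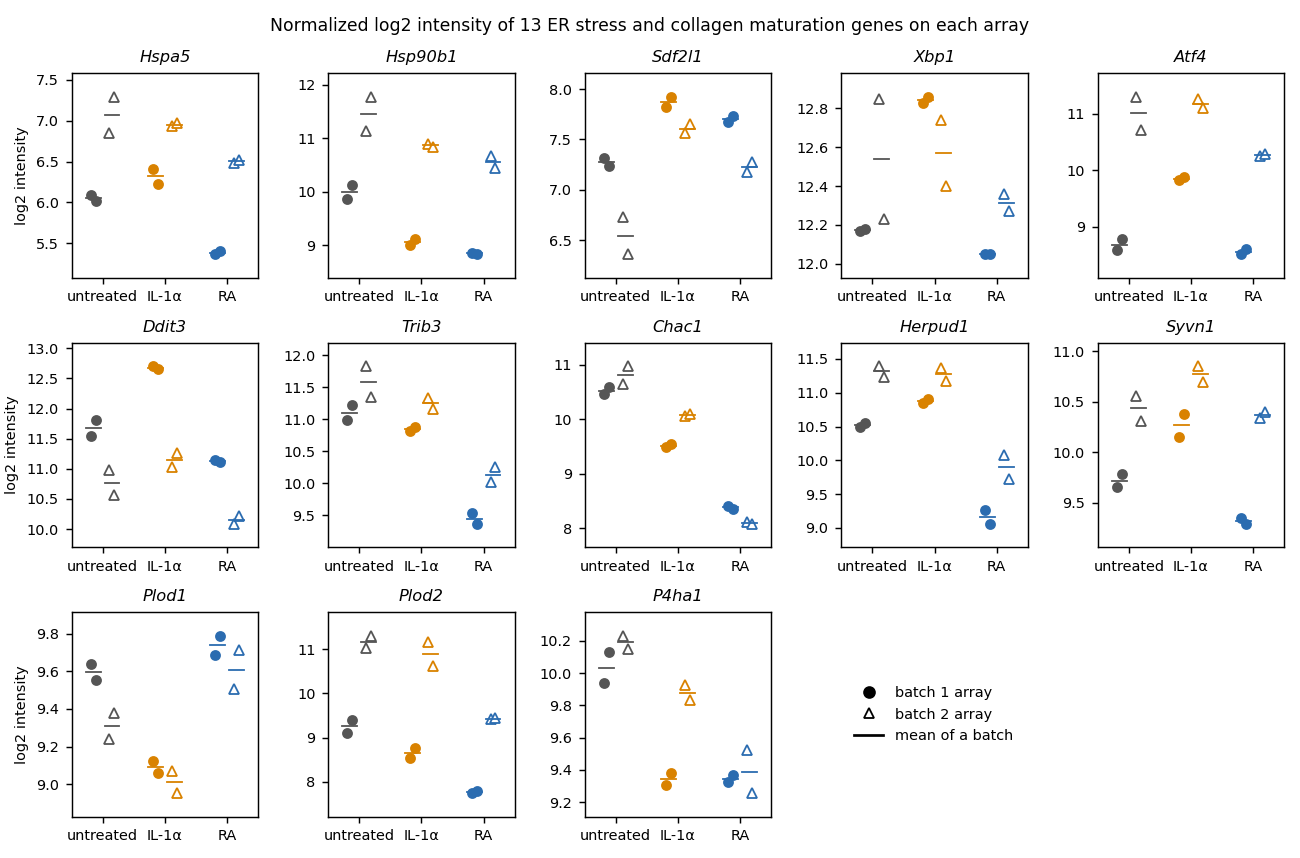
Normalized log2 intensity of 13 genes on each of the 12 arrays, by treatment, with batch 1 as filled circles, batch 2 as open triangles and the mean of each batch as a line. For Chac1, Trib3, Herpud1 and Plod2 both retinoic acid arrays of a batch lie below its untreated and IL-1α arrays, while Sdf2l1 is lowest in untreated explants.

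All 3 targets of ATF4 and CHOP fell with retinoic acid (median -1.56), 1 fell with IL-1α (median -0.30), and all 3 were lower with retinoic acid than with IL-1α. Chac1, which degrades glutathione, read 10.46 and 10.59 in batch 1, 10.65 and 10.97 in batch 2 in untreated explants. With IL-1α it read 9.49 and 9.54 in batch 1, 10.06 and 10.09 in batch 2, and with retinoic acid 8.41 and 8.36 in batch 1, 8.12 and 8.09 in batch 2. The treatments formed 3 separate levels, with untreated above IL-1α and IL-1α above retinoic acid. Chac1 fell 5.36-fold with retinoic acid (-2.42 ± 0.16, adjusted p = 1.39e-07) and 1.83-fold with IL-1α (-0.87 ± 0.16, adjusted p = 0.00155), and was lower with retinoic acid than with IL-1α (-1.55 ± 0.16, adjusted p = 8.43e-06). With IL-1α, Chac1 fell while Ddit3 and the brighter Atf4 probe rose.

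Trib3, a pseudokinase that restrains ATF4 and CHOP, read 10.99 and 11.22 in batch 1, 11.83 and 11.35 in batch 2 in untreated explants. With IL-1α it read 10.82 and 10.88 in batch 1, 11.34 and 11.17 in batch 2, and with retinoic acid 9.53 and 9.37 in batch 1, 10.02 and 10.25 in batch 2. All 4 retinoic acid arrays lay below the other 8. It fell 2.94-fold with retinoic acid (-1.56 ± 0.14, adjusted p = 1.45e-06), gave -0.30 ± 0.14 (adjusted p = 0.118) with IL-1α, and 2 further probes gave -1.60 and -1.77 for retinoic acid. Asns, asparagine synthetase, fell with retinoic acid (-1.08 ± 0.14, adjusted p = 4.33e-05) and lay lower than with IL-1α (-0.91 ± 0.14, adjusted p = 2.03e-04). A dimmer Asns probe, detected in batch 2 alone, gave -0.51 (adjusted p = 0.0955).

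Of the 4 genes of ER-associated degradation, 1 fell with retinoic acid (Herpud1), 1 rose with IL-1α (Syvn1), and 3 were lower with retinoic acid than with IL-1α (median -0.63). Herpud1 encodes an ER membrane protein of the degradation complex and is a standard stress target. It read 10.49 and 10.55 in batch 1, 11.39 and 11.24 in batch 2 in untreated explants. The IL-1α arrays read 10.85 and 10.91 in batch 1, 11.37 and 11.18 in batch 2, and with retinoic acid 9.27 and 9.06 in batch 1, 10.08 and 9.72 in batch 2. The retinoic acid arrays stood more than 1 log2 unit below all others of their batch. Herpud1 fell 2.61-fold with retinoic acid (-1.39 ± 0.12, adjusted p = 1.86e-06), gave 0.16 ± 0.12 (adjusted p = 0.368) with IL-1α, and differed between the treatments by -1.54 ± 0.12 (adjusted p = 7.60e-07).

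Syvn1, the ubiquitin ligase HRD1, read 9.66 and 9.78 in batch 1, 10.56 and 10.31 in batch 2 in untreated explants. The IL-1α arrays read 10.15 and 10.38 in batch 1, 10.85 and 10.70 in batch 2, and with retinoic acid 9.35 and 9.29 in batch 1, 10.34 and 10.40 in batch 2. IL-1α arrays were the highest of each batch. It rose with IL-1α (0.44 ± 0.13, adjusted p = 0.0257), gave -0.23 ± 0.13 (adjusted p = 0.206) with retinoic acid and was lower with retinoic acid than with IL-1α (-0.67 ± 0.13, adjusted p = 0.0018). The IL-1α call was lost without any untreated or IL-1α array of batch 1 or without untreated replicate 2 of batch 2 (adjusted p up to 0.114). Edem1, which serves the degradation of glycoproteins, was lower with retinoic acid than with IL-1α (-0.59 ± 0.18, adjusted p = 0.0213), a call lost without either IL-1α array of batch 1, retinoic acid replicate 2 of batch 1 or retinoic acid replicate 1 of batch 2 (adjusted p up to 0.0941). It was also lost under 4 of 9 alternative settings. The Edem1 difference was -0.92 in batch 1, where both retinoic acid arrays were not above background, and -0.26 in batch 2. Sel1l, the adaptor of HRD1, gave -0.18 ± 0.13 (adjusted p = 0.321) with retinoic acid and 0.07 ± 0.13 (adjusted p = 0.741) with IL-1α.

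For entry into and exit from the ER, 4 of 5 genes were tested, of which 1, Sec23a, fell with retinoic acid, none passed the test with IL-1α and 2 were lower with retinoic acid than with IL-1α. Sec61a1, the channel of the translocon, gave -0.13 ± 0.11 (adjusted p = 0.401) with retinoic acid and 0.06 ± 0.11 (adjusted p = 0.712) with IL-1α. For Sec61b, a small subunit of the channel, the probes disagreed. The brighter one gave 0.06 ± 0.13 (adjusted p = 0.756) and the other fell with retinoic acid, at -1.11 (adjusted p = 1.94e-05) against untreated and -0.84 (adjusted p = 2.31e-04) against IL-1α. Sec23a, of the inner COPII coat, fell with retinoic acid on both of its probes, at -0.52 ± 0.19 (adjusted p = 0.0491) and -0.67 (adjusted p = 0.0306), and against IL-1α at -0.56 ± 0.19 (adjusted p = 0.0421). The first Sec23a call held only without untreated replicate 2 of either batch or without retinoic acid replicate 2 of batch 2, and was lost without each other array (adjusted p up to 0.191), and the call against IL-1α was lost without any retinoic acid or IL-1α array but retinoic acid replicate 2 of batch 2 (up to 0.169). Sec24d, the cargo adaptor of the same coat, was lower with retinoic acid than with IL-1α (-0.65 ± 0.22, adjusted p = 0.0354). That call was lost without either IL-1α array of batch 1, retinoic acid replicate 2 of batch 1 or either retinoic acid array of batch 2 (up to 0.133). It was also lost under 5 of 9 alternative settings. The Sec24d difference was -0.84 in batch 1, where both retinoic acid arrays were not above background, and -0.47 in batch 2.

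Of the 5 collagen hydroxylases, 4 fell with retinoic acid (median -0.66) and 2 with IL-1α (median -0.40), and against IL-1α retinoic acid had 3 lower and 1 higher. Plod2, the lysyl hydroxylase that acts on collagen telopeptides, read 9.11 and 9.40 in batch 1, 11.03 and 11.30 in batch 2 in untreated explants. The IL-1α arrays read 8.55 and 8.77 in batch 1, 11.17 and 10.62 in batch 2, and with retinoic acid 7.75 and 7.80 in batch 1, 9.42 and 9.44 in batch 2. Its retinoic acid arrays were the lowest of each batch. Plod2 fell 3.05-fold with retinoic acid (-1.61 ± 0.16, adjusted p = 4.13e-06), lay 2.26-fold lower than with IL-1α (-1.18 ± 0.16, adjusted p = 7.28e-05), and gave -0.43 ± 0.16 (adjusted p = 0.0537) with IL-1α. Without untreated or IL-1α replicate 1 of batch 2 the IL-1α difference also passed the test, with an adjusted p down to 0.00528.

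Plod1, the hydroxylase of the helical lysines, read 9.64 and 9.55 in batch 1, 9.24 and 9.38 in batch 2 in untreated explants. With IL-1α it read 9.12 and 9.06 in batch 1, 9.07 and 8.95 in batch 2, and with retinoic acid 9.69 and 9.79 in batch 1, 9.51 and 9.71 in batch 2. IL-1α arrays were the lowest and retinoic acid arrays the highest of each batch. Plod1 fell with IL-1α (-0.40 ± 0.11, adjusted p = 0.0184), gave 0.22 ± 0.11 (adjusted p = 0.151) with retinoic acid, and was the 1 gene of the 33 called as higher in the retinoic acid arrays against IL-1α (0.62 ± 0.11, adjusted p = 9.33e-04, 1.54-fold). The IL-1α call was lost without any untreated or IL-1α array of batch 1 or without IL-1α replicate 2 of batch 2 (adjusted p up to 0.07). Plod3, which also transfers sugars to hydroxylysine, fell with retinoic acid (-0.31 ± 0.11, adjusted p = 0.041) and lay lower than with IL-1α (-0.48 ± 0.11, adjusted p = 0.00449), while a dimmer probe gave 0.17 (adjusted p = 0.361) and -0.10 (adjusted p = 0.609). The first Plod3 call held only without IL-1α replicate 1 of batch 1 or IL-1α replicate 2 of batch 2 and was otherwise lost with any array (adjusted p up to 0.138).

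P4ha1 and P4ha2 encode catalytic subunits of the prolyl 4-hydroxylase that stabilises the collagen helix. P4ha1 read 9.94 and 10.13 in batch 1, 10.23 and 10.15 in batch 2 in untreated explants. After IL-1α it stood at 9.31 and 9.38 in batch 1, 9.93 and 9.83 in batch 2, and with retinoic acid 9.33 and 9.37 in batch 1, 9.52 and 9.26 in batch 2. Untreated arrays were above those of both treatments. P4ha1 fell with retinoic acid (-0.74 ± 0.13, adjusted p = 5.34e-04) and with IL-1α (-0.50 ± 0.13, adjusted p = 0.0109), and the IL-1α call was lost without IL-1α replicate 2 of batch 1 (adjusted p = 0.0536). A dimmer probe gave -1.08 (adjusted p = 0.00165) and -0.54 (adjusted p = 0.0753). P4ha2 fell with retinoic acid (-0.66 ± 0.12, adjusted p = 6.97e-04), gave -0.33 ± 0.12 (adjusted p = 0.0529) with IL-1α, which passed the test under 7 of 10 alternative settings, and -0.34 ± 0.12 (adjusted p = 0.046) between the treatments, a call that was lost without any array other than untreated replicate 1 of batch 1, retinoic acid replicate 1 of batch 1 or the untreated arrays of batch 2 (adjusted p up to 0.163).

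Other genes of these pathways, from lists that do not hold the 36, were also more often lower than higher with retinoic acid. These lists too were chosen with earlier results of these data known, so their counts are descriptive and give no separate support. Of 130 tested, 69 fell and 7 rose with retinoic acid, and 42 fell and 15 rose with IL-1α. Against IL-1α, retinoic acid had 56 lower and 9 higher. The medians were -0.40, -0.16 and -0.33. Over all tested genes the shares lower and higher were 18.1% and 18.6% with retinoic acid, 15% and 15.1% with IL-1α, and 16.4% and 16.1% between the treatments, and the counts of the single lists below are to be read against these.

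Collagen genes had medians of -1.73 with retinoic acid, -0.92 with IL-1α and -0.81 between the treatments, with 16 of 17 lower with retinoic acid, 11 with IL-1α and none higher with either, and 10 lower with retinoic acid than with IL-1α. Several of them, Col2a1 included, are also chondrocyte markers. Col2a1, the fibrillar collagen of cartilage, gave -1.42 ± 0.19 (adjusted p = 6.83e-05) with retinoic acid and -0.20 ± 0.19 (adjusted p = 0.468) with IL-1α. Col27a1, a further fibrillar collagen, fell with retinoic acid (-4.17 ± 0.17, adjusted p = 2.02e-09), and lay at -3.36 against IL-1α. It was detected on 2 of the 4 retinoic acid arrays, so that the size of both differences rests partly on values not above background.

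The other collagen maturation genes gave 11 lower and 2 higher of 17 with retinoic acid, 13 and 1 with IL-1α, and 7 and 4 between the treatments. Serpinh1, the collagen chaperone HSP47, fell with retinoic acid (-0.41 ± 0.11, adjusted p = 0.0119) and with IL-1α (-0.39 ± 0.11, adjusted p = 0.019), near the top of the scale. Pcolce2, an enhancer of procollagen C-proteinase, fell with retinoic acid (-4.81 ± 0.12, adjusted p = 6.53e-11) and with IL-1α (-2.25 ± 0.12, adjusted p = 7.04e-08). Its relative Pcolce fell with IL-1α (-2.07 ± 0.12, adjusted p = 1.19e-07) and was 2.35 higher on the log2 scale in retinoic acid than in IL-1α explants. Loxl1, a collagen and elastin crosslinking enzyme, rose with retinoic acid (1.67 ± 0.13, adjusted p = 6.61e-07) and was 1.96 higher than with IL-1α.

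Of the other ATF4 targets, 14 were lower and 3 higher of 20 with retinoic acid, 7 and 3 with IL-1α, and 12 and 3 between the treatments. Gdf15, a stress-induced cytokine, rose with IL-1α (3.80 ± 0.26, adjusted p = 4.09e-07) and with retinoic acid (0.88 ± 0.26, adjusted p = 0.0169). Slc7a11, the cystine transporter, rose with IL-1α (2.16 ± 0.20, adjusted p = 6.03e-06), fell with retinoic acid (-0.84 ± 0.20, adjusted p = 0.00516) and differed by -3.004 between them. Both thus rose with IL-1α, under which Chac1 fell.

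In the remaining lists, counts are given as lower and then higher. Other ER folding genes gave 9 lower and 0 higher of 15 with retinoic acid, 2 and 0 with IL-1α, and 7 and 0 between the treatments. Translocation and glycosylation genes gave 10 and 0 of 22, 4 and 4, and 9 and 0. Genes of ER export gave 6 and 0 of 15, 1 and 2, and 6 and 0. The sensors and other regulators gave 2 and 0 of 12, 2 and 3, and 4 and 0, and the other degradation genes 1 and 2 of 12, 2 and 2, and 1 and 2. Differences between these shares were not tested.

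**Figure D3:**
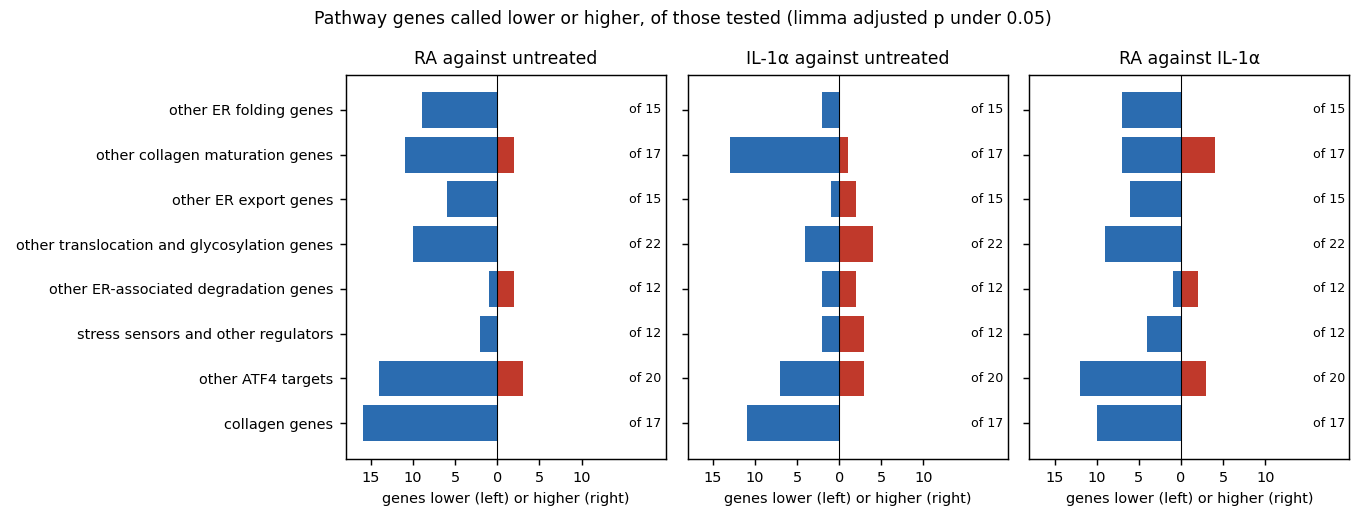
Number of pathway genes outside the 36 that were lower (blue, left) or higher (red, right) at an adjusted p under 0.05, by list and comparison, with the number tested at the right of each bar. Collagen genes show 16 of 17 lower with retinoic acid and 11 with IL-1α; degradation genes show 1 lower and 2 higher of 12 with retinoic acid.

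Responses were compared between the batches, which are also the mouse lines. With retinoic acid, 29 of the 33 differences were below 0 in batch 1 and 29 in batch 2, and 27 were below 0 in both. With IL-1α the median was 0.05 in batch 1 and -0.22 in batch 2, with 14 and 24 genes below 0. The matching counts over all tested genes were not taken. The median of batch 2 minus batch 1 in the IL-1α response was -0.21 for the 33 and 0.03 over all tested genes. With median scaling it was -0.62 and -0.33. For the retinoic acid response it was -0.04 and 0.02. All 17, 8 and 18 called genes of the 3 comparisons had the same sign in both batches. Because these genes were called on the same arrays of both batches together, that agreement is partly set by the selection and is not a replication. A difference of the response between batches was called for 1 of the 33 with retinoic acid (3.03%, against 2.56% of all tested genes), 3 with IL-1α (9.09%, against 5.03%) and 2 between the treatments (6.06%, against 9.96%), each by limma with a term for treatment by batch.

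**Figure D4:**
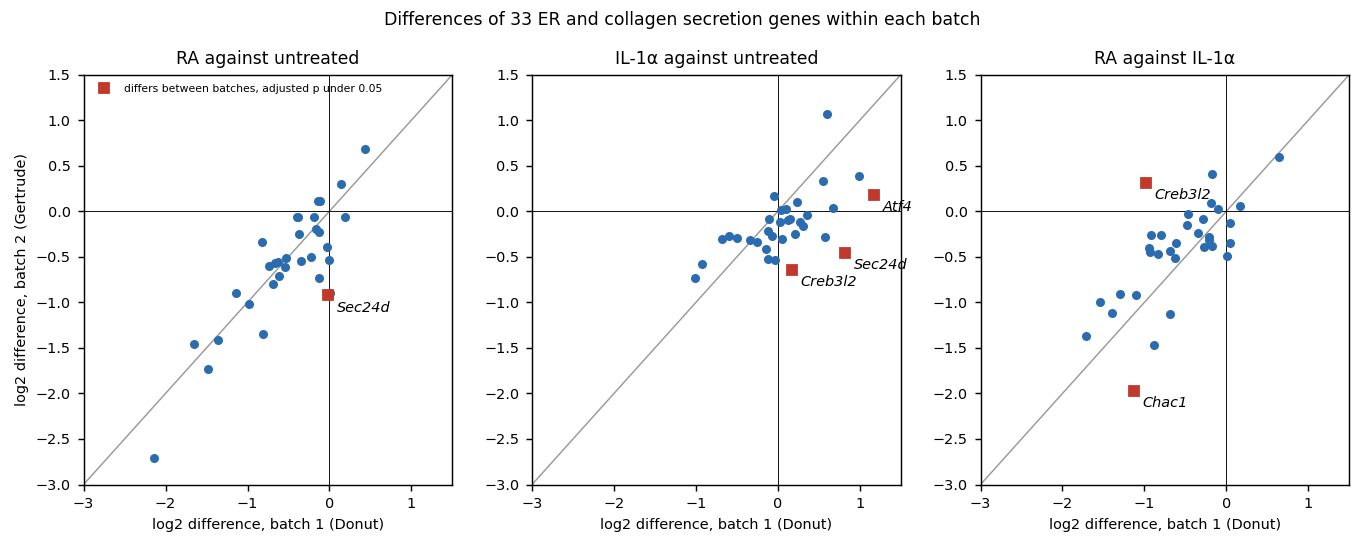
Log2 difference within batch 1 (Donut, x axis) against that within batch 2 (Gertrude, y axis) for the 33 genes, in each comparison, with the line of equality and red squares where the batches differed at an adjusted p under 0.05. With IL-1α, Atf4, Sec24d and Creb3l2 lie below the line; with retinoic acid against untreated, Sec24d does.

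Arrays of a treatment within a batch correlated at 0.983 to 0.995 over tested probes and arrays of a treatment in different batches at 0.868 to 0.902, below the 0.932 to 0.968 between treatments within a batch. Between 13786 and 19485 probes were detected per array. Canx, Dnajb9, Pdia6 and Ero1l were detected on all arrays of batch 2 and none of batch 1, so their batch 1 values were not above background. With both the batch and the replicate terms left out of the model, 7, 2 and 6 of the 33 were called in the 3 comparisons. Over all 14317 tested genes, 1883, 1092 and 1691 were then called.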

How the data were processed

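The authors deposited 1 table of probe intensities on a linear scale for 12 bead arrays, by their values neither background-subtracted nor normalized, and a detection score, a fraction that is headed as a p-value but rises with intensity. The detection p was taken as 1 minus the score. The authors' limma version and bead software are not given in the sources used here. In R 4.3.3 with limma 3.58.1, neqc estimated background from the detection p, normalized by quantiles and added an offset of 16 before log2. Of 46632 probes, 18200 were kept, namely those detected (p under 0.05) on 4 or more of the 12 arrays. Treatment was fitted beside a batch-by-replicate factor (4 levels), after the study's methods, and a further model added treatment by batch. Benjamini-Hochberg adjustment ran over all kept probes at 0.05, and a gene was given by its brightest kept probe. The functions were tested on simulated data. 0 columns were left without a sample.

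The members and lists were chosen with earlier results of these data known. Values per array are given for Hspa5, Xbp1, Atf4, Ddit3 and, in each comparison, the called members with the 4 largest rises and falls. Of the pathway lists, Serpinh1, Col2a1 and the 2 largest called rises and falls of each comparison are named. The protein sequences of the members were not used here. Alternatives were background correction, normalization, offset, detection filter, batch and replicate terms, the probe rule and leaving out each array.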

Additional observations from a re-analysis of the deposited data

Results flagged for a closer look

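Among 99 gene and treatment groups of 4 arrays, a single array stood apart from the other 3 in 2. The rule flags about 1 in 20 groups of 4 like values. That rate does not apply here, since each group holds 2 arrays of each batch and many genes differ in level between the batches. Xbp1 read 12.85 on untreated replicate 1 of batch 2, against 12.17 to 12.23 on the other untreated arrays. Creb3l1 read 5.132 on retinoic acid replicate 1 of batch 2, against 4.94 to 4.963 on the others, near the limit of detection.

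The response of 4 genes differed between the batches by limma with a term for treatment by batch, in 6 comparisons. For Atf4 the IL-1α response was 1.17 in batch 1 and 0.18 in batch 2, a difference of -0.997 (adjusted p = 0.0269). The call was kept without any retinoic acid array or without untreated replicate 2 of batch 2, and lost without each of the other 7 arrays (adjusted p up to 0.141). The second Atf4 probe gave 0.18 and -0.08, a difference of -0.27 that did not pass the test (adjusted p = 0.55). For Creb3l2 the IL-1α response was 0.17 and -0.65, a difference of -0.813 (adjusted p = 0.047), which was kept only without untreated replicate 1 of batch 2 and lost without each of the other 11 arrays (up to 0.231). Retinoic acid against IL-1α for Creb3l2 was -0.99 and 0.31, a difference of 1.295 (adjusted p = 0.00341), and was called whichever of the 12 arrays was left out. Both retinoic acid arrays of batch 1 were not above background for Creb3l2, and the part of the detection limit in this difference was not tested.

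Chac1 was lower with retinoic acid than with IL-1α by -1.13 in batch 1 and -1.97 in batch 2, a difference of -0.839 (adjusted p = 0.0235). It was kept without any untreated array or without retinoic acid replicate 1 of batch 2, and lost without each of the other 7 arrays (up to 0.126). For Sec24d the retinoic acid response was -0.02 and -0.92, a difference of -0.906 (adjusted p = 0.0431), kept only without untreated replicate 2 or retinoic acid replicate 2 of batch 2 (up to 0.228 without the others). Its IL-1α response was 0.82 and -0.46, a difference of -1.28 (adjusted p = 0.00693), lost without untreated replicate 1 of batch 1 or IL-1α replicate 2 of batch 2 (up to 0.077). Sec24d was detected on 2 of 6 arrays of batch 1 and 6 of 6 of batch 2, and the part of the detection limit in these differences was not tested.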

How the results depend on the processing

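The counts of called genes were 17 with retinoic acid, 8 with IL-1α and 18 between the treatments. Median scaling gave 11, 4 and 9, and leaving batch and replicate out of the model 7, 2 and 6. Over all 14317 tested genes the main counts were 5257, 4317 and 4653. Median scaling called 4298, 2569 and 3376 of these genes, and leaving out batch and replicate 1883, 1092 and 1691. With median scaling, 34.2% of all calls between the treatments were lower, against 50.5%. For differences between batches (1, 3 and 2), median scaling gave 0, 7 and 7, normalization within each batch 2 with retinoic acid and 1 between the treatments, an offset of 50 gave 4 between the treatments, no detection filter 0 and 1 for retinoic acid and IL-1α, and detection on all 12 arrays 0, 1 and 1. Over all tested genes, median scaling called 315, 1322 and 2662 of 14317 as differing between batches, against 367, 720 and 1426. Of these median-scaled calls, 95.5% were below 0 for IL-1α and 6.39% between the treatments. Normalization within each batch called 493 and 1646 in its comparisons, and the offset of 50 called 1785. Without the filter 337 and 528 of 34509 were called, and with detection on all 12 arrays 98, 428 and 982 of 9484. The cause of these changes was not tested. Leaving out each array in turn gave 14 to 18, 4 to 10 and 13 to 18, and 0 to 2, 0 to 4 and 1 to 2 for the differences between batches. Over all tested genes the same fits called 4298 to 5296, 3093 to 4454 and 3823 to 4773. For the differences between batches they called 150 to 514, 63 to 1190 and 421 to 2192. Of the 33, IL-1α gave 4 without IL-1α replicate 2 of batch 1 and 5 without untreated or IL-1α replicate 1 or untreated replicate 2 of that batch. Without untreated replicate 1 of batch 1, Atf4, Edem1, Pdia6 and Sec24d were also called lower with retinoic acid. Differences that just missed the threshold passed under several alternatives, with IL-1α P4ha2 under 7, Plod2 under 6 and P4hb under 2, and between the treatments P4hb under 7. No called gene reversed its direction under the alternatives that tested it or with any array left out. Sec61b, which was not called by its brighter probe, changed sign and was called lower when all its kept probes were averaged. It then gave -0.52 with retinoic acid against untreated and -0.36 against IL-1α. There were 10 alternatives, of which Creb3l1, Canx, Edem1 and Sec24d were tested in 9, since they were not detected on all 12 arrays. Calls kept throughout numbered 6, 2 and 5. With retinoic acid these were Chac1, Creb3l1, Herpud1, P4ha1, P4hb and Trib3, with IL-1α Chac1 and Sdf2l1, and between the treatments Chac1, Creb3l1, Herpud1, Plod1 and Trib3.

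The replicate block was part of the model, and without it 19, 10 and 18 of the 33 genes were called (1, 2 and 2 for differences between batches). Over all 14317 tested genes, 5496, 4603 and 4877 were called without it (387, 655 and 1276 for differences between batches). Replicate numbers were not shown to pair the arrays, since deviations of same-numbered arrays correlated at 0.00266 to 0.062 in batch 1 and -0.108 to 0.391 in batch 2. The dimmest detected probe of an array had a log2 intensity of 4.86 to 5.48, below which levels were not measured.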
